A study of Mus musculus with 4 samples.

Results

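Notch signalling genes were followed across the cell types of the embryonic mouse kidney. The 10 genes were the receptors Notch1, Notch2, Notch3 and Notch4, the ligands Dll1, Dll4 and Jag1, the glycosyltransferase gene Lfng (lunatic fringe), and the targets Hes1 and Hes5. They were taken by name from the 27932 genes found in any of the 4 deposited tables, and all 10 were present. A list of 45 further genes of the pathway was read beside them.

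Notch receptors are cleaved when a Delta or Jagged ligand on a neighbouring cell binds them, and the freed intracellular part joins the DNA-binding protein RBPJ to switch on Hes and Hey genes. Fringe enzymes add sugars to the receptors and change which ligands they answer to. In the developing nephron the pathway is known for its part in proximal fate, in vessels Dll4 and Notch1 shape arteries and sprouting tips, and Notch3 is known from the muscle cells and pericytes around vessels.

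RBPJ binds the core motif TGGGAA, and the 250 bases before the RefSeq start of each gene (build GRCm38.p6) were searched for it on both strands. Of the 10 genes, 9 had an entry, and 2 of these held the motif: Hes5 and Lfng, each with 2 matches. Hes1 had no entry. The motif occurred at least once in 21.6% of 32851 promoter windows of this length and at least 2 times in 2.77%. The windows to show had been set as those of Hes1 and Hes5, and that of Lfng was added after its matches were seen. Hes5 and Lfng were higher in early nephron cells than in the mean of the other nephron stages, as given further on. So was the target Nrarp, whose window held no match. Capitals mark the motif, as TGGGAA or as its reverse complement TTCCCA. A match is a description of the letters and not a shown binding site.
Hes5 promoter, chr4:154960673-154960922, plus strand: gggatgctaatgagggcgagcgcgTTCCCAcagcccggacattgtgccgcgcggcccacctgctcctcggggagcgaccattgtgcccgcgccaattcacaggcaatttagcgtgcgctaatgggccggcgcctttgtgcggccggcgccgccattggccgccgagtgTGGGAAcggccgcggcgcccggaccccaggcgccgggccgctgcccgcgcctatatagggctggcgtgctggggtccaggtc
Lfng promoter, chr5:140607091-140607340, plus strand: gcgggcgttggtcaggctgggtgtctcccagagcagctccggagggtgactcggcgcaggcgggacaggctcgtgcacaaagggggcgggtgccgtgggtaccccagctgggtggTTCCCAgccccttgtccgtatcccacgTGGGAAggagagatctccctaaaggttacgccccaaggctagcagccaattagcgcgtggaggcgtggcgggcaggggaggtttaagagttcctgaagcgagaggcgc
The matches begin 226 and 82 bases before the start of Hes5, and 135 and 108 bases before that of Lfng.

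Kidneys of E14.5 embryos had been profiled by Drop-seq, which catches single cells in droplets with barcoded beads and reads the 3' ends of their transcripts. Of the 4 libraries, 2 were wildtype and 2 carried the genotype label Hoxa9,10,11 and Hoxd9,10,11 -/-. These 6 Abd-B type Hox genes pattern the posterior body, and the series title concerns lineage fidelity when their function is reduced. All 4 libraries share a strain described as mixed and mostly CD-1 and 129. The labels name neither the number of embryos per library nor the altered part of each Hox gene. The p-values therefore reflect only how far these libraries scatter, and that scatter may be technical.

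The tables held 3572346 to 24834658 counts per library (called UMIs here), and 810 to 4788 cells per library were kept, 11778 of 15144 barcodes in all. Any pair of libraries shared 0 to 2 cell barcodes. The barcodes above the 10% mitochondrial limit made up 7.76% and 9.06% of the wildtype libraries, against 19.6% and 29.1% of the mutant ones. The 6 targeted Hox genes stood at 19.96 to 175 CPM (counts scaled to 1000000 UMIs of the gated cells) in wildtype and 29.6 to 197 CPM in mutant libraries, and 0 of 6 passed the genotype test. A 3' tag outside the altered part checks nothing, so these levels do not test the labels.

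Cells were gated by the UMIs of 128 marker genes in 13 lists, none of which is 1 of the 10 genes. The nephron gate held 743, 1729, 148 and 1113 cells in wildtype 1, wildtype 2, mutant 1 and mutant 2, the order used in every list of 4 values below. The endothelial gate held 127, 241, 50 and 402 cells and the stromal gate 504, 1049, 404 and 2044. Within nephron cells, progenitors (Six2, Cited1 and others) numbered 339, 788, 3 and 29, and early nephron cells (Lhx1, Wnt4, Pax8 and others) 139, 398, 49 and 394. At least 1 stromal marker UMI was found in 34.1% of endothelial and 48.8% of early nephron cells, with a median of 0 in both. Gates are ranges of marker UMIs, and 5.73% of nephron, 4.88% of endothelial and 4.11% of stromal-lineage cells sat at the minimum of 3 UMIs.

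The 10 genes divided the lineages among themselves. Dll4, Notch4 and Notch1 were higher in endothelium, Jag1, Dll1, Lfng and Hes5 in nephron cells, and Notch3 in stroma. Between endothelium and stroma 9 of the 10 genes passed edgeR's quasi-likelihood test, 7 higher and 2 lower in endothelium, where 40.9% of 11194 genes passed, 19.1% higher and 21.8% lower. Their median log2 fold change was 2.01, and that of all genes tested was -0.05. Between nephron and stroma 7 passed, 6 higher and 1 lower in nephron, where 40.7% of genes passed (19.8% higher and 21% lower), with medians of 0.93 and 0.01. Between endothelium and nephron 9 passed, 3 higher and 6 lower in endothelium, where 41.1% of genes passed (19.1% higher and 22% lower), with medians of -1.14 and -0.07. The gates of a library share its cells' processing, so the library was a block in these fits.

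**Figure D1:**
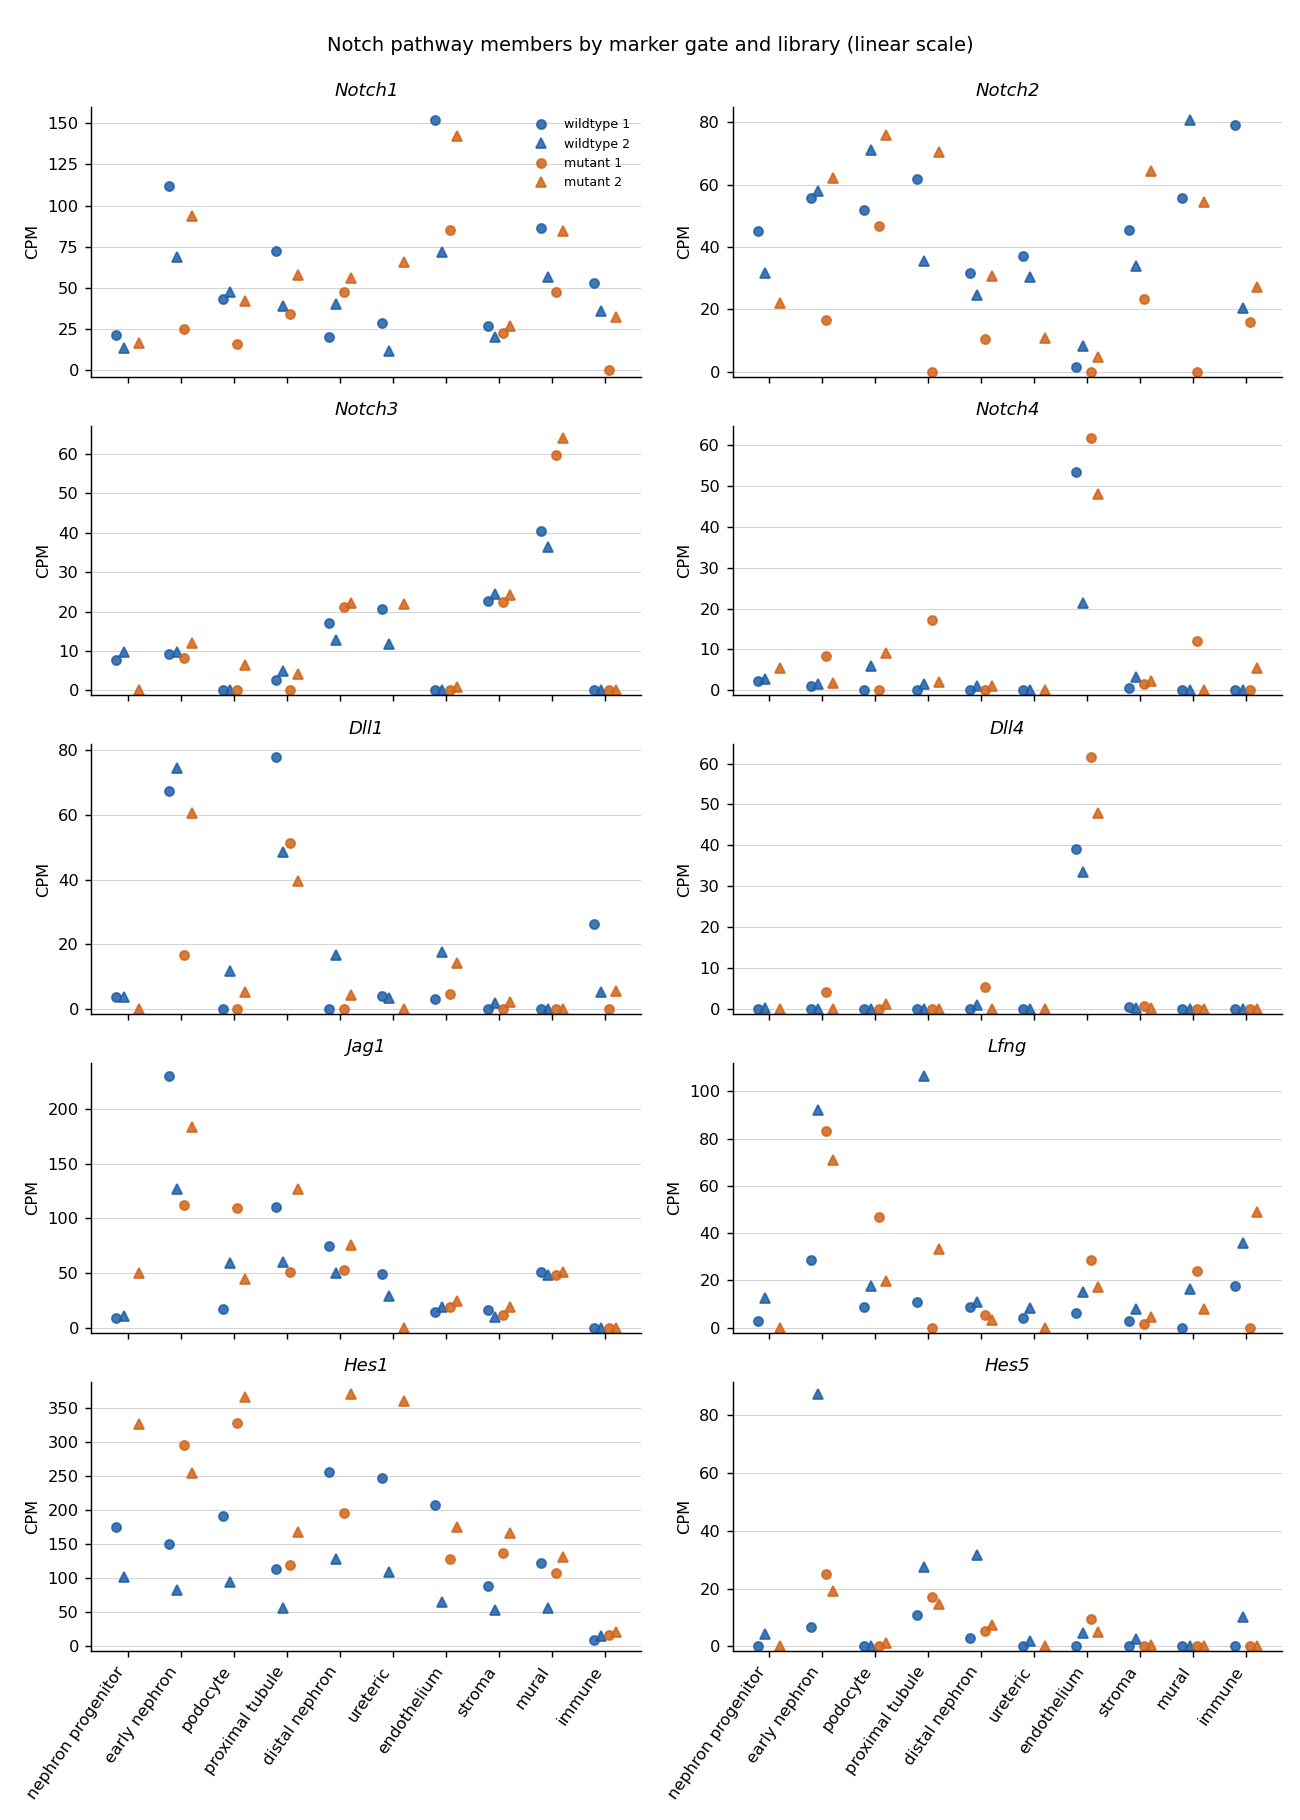
Levels in CPM (linear axis) of each gene in 10 marker gates, with 1 point per library (blue wildtype, orange mutant, circles library 1, triangles library 2) where the gate held at least 10 cells. Dll4 and Notch4 stand in endothelium, Notch3 is highest in mural cells, and Dll1 and Jag1 are highest in early nephron cells in the wildtype means.

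Notch1, on chromosome 2 at 26457903 to 26516663 (GRCm38), is the broadly used receptor of the pathway. It stood at 152, 71.7, 85.3 and 142 CPM in endothelium, at 50.03, 38.2, 44.9 and 71.9 CPM in nephron cells and at 26.9, 20.1, 22.4 and 27.0 CPM in stroma. Each library's endothelial value lay above its nephron value, and each nephron value above the stromal one. The log2 difference was 2.30 ± 0.16 (SE) for endothelium over stroma (adjusted p = 1.76e-14), 1.25 ± 0.14 for endothelium over nephron (adjusted p = 3.47e-09) and 1.04 ± 0.14 for nephron over stroma (adjusted p = 2.40e-07). In wildtype the order of the gates was endothelium, early nephron, mural, proximal tubule, podocyte and immune cells, and each neighbouring pair in that order overlapped between the 2 libraries.

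Notch4, on chromosome 17 at 34564268 to 34588503, is a receptor known from endothelium. It gave 53.4, 21.4, 61.6 and 47.9 CPM in endothelium, 0.58, 3.35, 1.495 and 2.36 CPM in stroma and 1.29, 2.39, 3.74 and 3.78 CPM in nephron cells. No library's stromal or nephron value came near the lowest endothelial value. Notch4 differed on the log2 scale by 4.30 ± 0.38 for endothelium over stroma (adjusted p = 3.53e-11) and 4.05 ± 0.35 for endothelium over nephron (adjusted p = 1.44e-11).

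Notch2, on chromosome 3 at 98013527 to 98150361, is the receptor known for proximal nephron fate. Its endothelial sums held 1, 9, 0 and 10 counts, or 1.57, 8.38, 0 and 4.56 CPM, and its stromal values were 45.5, 34.1, 23.2 and 64.3 CPM. Endothelium was thus below stroma in every library, and in wildtype it was the only one of 10 gates whose range did not overlap that of the gate above it. The log2 difference was -3.27 ± 0.33 against stroma (adjusted p = 1.48e-09) and -3.23 ± 0.33 against nephron (adjusted p = 1.25e-09). Nephron cells, at 48.1, 41.8, 19.96 and 57.6 CPM, differed from stroma by -0.03 ± 0.18 and did not pass (adjusted p = 0.913). In wildtype podocytes Notch2 stood at 52.0 and 71.3 CPM and in mural cells at 55.7 and 80.9 CPM.

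Notch3, on chromosome 17 at 32120820 to 32166852, is the receptor of vascular muscle and pericytes. Its stromal values of 22.8, 24.6, 22.4 and 24.2 CPM were close to each other in all libraries. Endothelium held 0, 0, 0 and 2 counts among 4115248 UMIs against 321 counts in stroma, a 49.2-fold lower level with a counting interval of 13.52 to 408. In nephron cells it stood at 9.27, 11.7, 12.5 and 11.2 CPM, a log2 difference of -1.14 ± 0.20 from stroma (adjusted p = 1.67e-05), and endothelium was 22.9-fold below nephron cells with a counting interval of 6.26 to 190. Both wildtype podocyte sums, of 115310 and 168261 UMIs, and all 4 immune sums, of 62345 to 195981 UMIs, held 0 counts of it. In sums this small 0 counts do not show absence. The mutant podocyte sums gave 0 and 6.56 CPM.

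Among the ligands, Dll4 on chromosome 2 at 119325784 to 119335962, the Delta ligand of arteries and sprouting tip cells, was nearly restricted to 1 gate. Endothelium gave 39.2, 33.5, 61.6 and 47.9 CPM, from 25, 36, 13 and 105 counts. Stroma held 1, 1, 1 and 2 counts and nephron cells 1, 3, 2 and 1, none above 2.50 CPM. Endothelium differed on the log2 scale by 6.75 ± 0.45 from stroma (adjusted p = 6.38e-14) and by 6.90 ± 0.42 from nephron cells (adjusted p = 4.75e-15).

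Jag1, on chromosome 2 at 137081456 to 137116644, is the Jagged ligand of nephron epithelium and of vessel walls. It stood at 80.9, 54.1, 79.8 and 125 CPM in nephron cells, 14.1, 18.6, 19.0 and 24.6 CPM in endothelium and 15.8, 9.77, 11.2 and 18.9 CPM in stroma. Every nephron value lay above every value of the other 2 gates. The nephron over stroma difference was 2.53 ± 0.16 (log2, adjusted p = 1.50e-15), and endothelium over nephron was -2.0 ± 0.19 (adjusted p = 5.49e-11). Endothelium over stroma gave 0.53 ± 0.22 (adjusted p = 0.0565) and did not pass, although it passed without wildtype 1 (0.72) and with the looser and the stricter gate (0.60 and 0.57). All 4 immune sums held 0 counts.

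Dll1, on chromosome 17 at 15367354 to 15376872, is a Delta ligand used in many embryonic tissues. It gave 24.4, 30.0, 13.7 and 38.0 CPM in nephron cells, 3.14, 17.7, 4.74 and 14.1 CPM in endothelium and 0, 1.95, 0 and 2.21 CPM in stroma. The nephron value was the highest and the stromal value the lowest in each library. The log2 difference was 4.26 ± 0.33 for nephron over stroma (adjusted p = 2.10e-12), 3.0 ± 0.43 for endothelium over stroma (adjusted p = 7.67e-07) and -1.26 ± 0.30 for endothelium over nephron (adjusted p = 0.000817). Within endothelium Dll1 was lower in cells with arterial markers in 3 of 4 libraries, on 1, 1, 0 and 16 counts in them, with no test.

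Lfng, on chromosome 5 at 140607320 to 140615545, stood at 9.92, 42.2, 37.4 and 39.9 CPM in nephron cells, 6.28, 14.9, 28.4 and 17.3 CPM in endothelium and 2.92, 8.09, 1.495 and 4.57 CPM in stroma. In each library the order was nephron, endothelium, stroma. The log2 difference was 2.76 ± 0.25 for nephron over stroma (adjusted p = 4.13e-11), 1.74 ± 0.33 for endothelium over stroma (adjusted p = 5.58e-05) and -1.01 ± 0.27 for endothelium over nephron (adjusted p = 0.00256). The second did not pass in the wildtype libraries alone (1.04), nor the third without wildtype 2 (-0.83).

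Hes1, on chromosome 16 at 30064384 to 30067796, encodes a repressor that Notch and other signals switch on. It gave 169, 96.8, 255 and 301 CPM in nephron cells, 207, 65.1, 128 and 175 CPM in endothelium and 88.7, 53.6, 137 and 167 CPM in stroma. The ranges of the 3 gates overlapped widely, and in wildtype only immune cells, at 8.79 and 15.3 CPM, lay apart from the gate above them. The nephron over stroma difference was 0.81 ± 0.13 (log2, adjusted p = 2.24e-05). Endothelium over stroma gave 0.47 ± 0.15 (adjusted p = 0.0171) and was lost without wildtype 1 (0.23) and without wildtype 2 (0.49). Endothelium over nephron gave -0.34 ± 0.15 and did not pass (adjusted p = 0.0700), but it did without wildtype 1 (-0.62) and without the low-count filter (-0.38).

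Hes5, on chromosome 4 at 154960923 to 154962371, encodes a related repressor closely tied to Notch activity. Nephron cells held 13, 406, 10 and 85 counts, or 2.80, 33.4, 12.5 and 14.6 CPM, endothelium 0, 5, 2 and 11 counts, and stroma 0, 9, 0 and 4. The nephron value was the highest of the 3 gates in every library, but wildtype 2 alone held most of the counts. The log2 difference was 4.13 ± 0.40 for nephron over stroma (adjusted p = 3.44e-10) and 2.27 ± 0.60 for endothelium over stroma (adjusted p = 0.00248). The latter was lost without mutant 2 (1.57), and the endothelium over nephron difference of -1.87 ± 0.41 (adjusted p = 0.000370) was lost without wildtype 2 (-1.35).

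**Figure D2:**
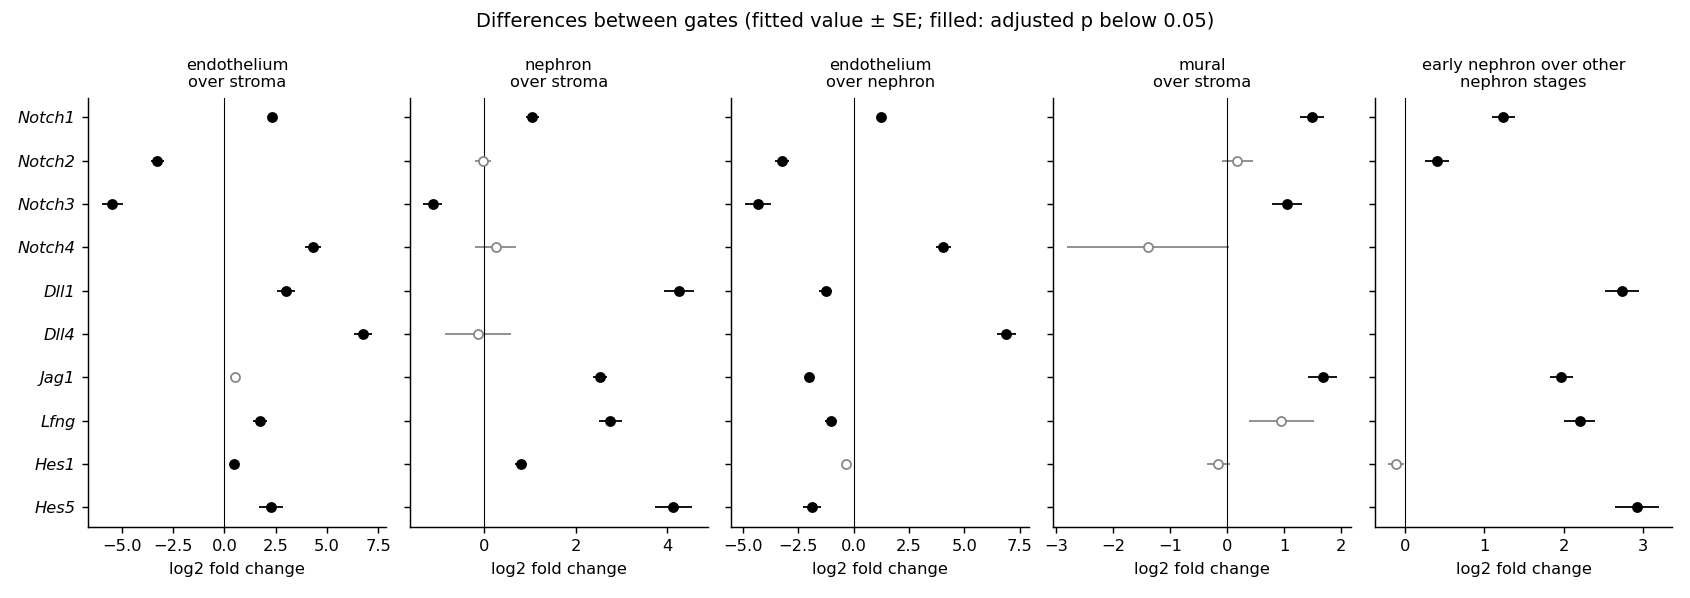
Fitted log2 fold changes (points) with standard errors (bars) of the 10 genes in 5 contrasts between gates. Filled points passed an adjusted p of 0.05, and genes that were not tested or had 0 counts in mural cells are left out. Dll4 shows the largest positive value in both endothelial contrasts, at 6.75 and 6.90, and Notch3 and Notch2 lie below 0 in them.

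Each cell was also thinned to 1000 UMIs. In the wildtype libraries the same restriction was seen for Dll4 against stroma, but less clearly for Notch3 and Jag1. A Dll4 UMI was seen in 4.96% (exact 95% interval 1.84 to 10.48) and 3.59% (1.56 to 6.95) of wildtype endothelial cells, and in 0 of 475 and 0 of 970 stromal cells, which allows up to 0.632% and 0.309%. Without thinning these shares were 16.5% and 11.2% against 0.198% and 0.0953%, at median depths of 3608 and 3356 UMIs in endothelium and 2818 and 2954 in stroma. A Notch3 UMI was seen in 2.11% and 2.47% of wildtype stromal cells and in 0 of 121 and 0 of 223 endothelial cells, which allows up to 2.48% and 1.35%. The stromal share thus lies under the first limit and above the second. In mutant 2 the Notch3 share was 2.78% (2.05 to 3.68) of stromal and 0.267% (0.00675 to 1.48) of endothelial cells, with no overlap. In mutant 1 it was 2.62% of stromal cells and 0 of 45 endothelial cells, which allows up to 6.67%. A Jag1 UMI was seen in 5.12% and 4.16% of wildtype nephron cells against 2.32% and 0.825% of stromal cells. In wildtype endothelial cells the Jag1 share was 3.31% (0.908 to 8.25) and 3.14% (1.27 to 6.36). The nephron intervals (3.63 to 6.995 and 3.25 to 5.22) overlapped both endothelial ones and the stromal one of wildtype 1 (1.16 to 4.11). At this depth the wildtype shares of Jag1 thus did not set nephron cells apart from endothelium. In mutant 2 they were 9.52% (7.82 to 11.46) of nephron and 3.47% (1.86 to 5.86) of endothelial cells, and these intervals did not overlap. In mutant 1 they were 8.15% (4.14 to 14.1) of nephron cells and 0 of 45 endothelial cells, which allows up to 6.67%. The left-out cells below 1000 UMIs were 24 endothelial, 108 stromal and 66 nephron cells of the wildtype libraries.

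The 45 other pathway genes were read in the same contrasts, and up to 6 past the threshold are named in each. Between endothelium and stroma 34 were tested, 8 were higher and 10 lower, where 19.1% of all genes passed as higher and 21.8% as lower. Their median log2 fold change was 0.05, and that of all genes was -0.05. Mfng, the manic fringe gene, was at 95.4 ± 15.1 CPM (SD, n = 2) in wildtype endothelium and 1.56 ± 0.56 in wildtype stroma, a log2 difference of 6.32 ± 0.31 (SE, adjusted p = 2.28e-18). Nrarp, a target that feeds back on the pathway, differed by 4.41, the target Hey1 by 2.82, and Neurl3, of the Neuralized family that acts on ligand endocytosis, by 3.77. The target Heyl was lower by a log2 difference of -3.40 and Dtx3, of the Deltex family, by -1.65.

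Between nephron and stroma 6 of the 34 were higher and 5 lower, where 19.8% of all genes passed as higher and 21% as lower. Hey1 was higher by 2.92, Nrarp by 4.10, Hes6 by 1.30 and Heyl by 1.17 on the log2 scale. Dlk1, a Delta-like protein that lacks the receptor-binding domain of the canonical ligands, was lower by -5.79, at 7.09 ± 3.01 CPM in wildtype nephron cells and 411 ± 99.8 in wildtype stroma, and Dtx3 by -0.82. Between endothelium and nephron 5 of the 34 were higher and 8 lower in endothelium, where 19.1% of all genes passed as higher and 22% as lower. Mfng was higher by 6.16, Numb, an inhibitor of Notch, by 1.07, Adam10, the protease that makes the first ligand-induced cut, by 0.73, and Neurl3 by 1.78. Heyl was lower by -4.57 and Snw1, a partner of the nuclear complex, by -0.37.

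Mural cells, the stromal-lineage cells with at least 3 UMIs from 2 or more mural markers (Rgs5, Kcnj8, Abcc9, Myh11 and others), numbered 42, 49, 10 and 80. Of the 10 genes, 3 passed over stroma, all higher, where 5.56% of 11194 genes passed, 2.61% as higher. Notch3 stood at 40.5, 36.4, 59.7 and 64.0 CPM, above every stromal value, with a log2 difference of 1.06 ± 0.26 (adjusted p = 0.0118). Jag1 stood at 50.7, 48.5, 47.8 and 51.2 CPM, a difference of 1.68 ± 0.26 (adjusted p = 4.67e-05), and Notch1 at 86.1, 56.6, 47.8 and 84.8 CPM, a difference of 1.49 ± 0.21 (adjusted p = 1.45e-05). Receptor and ligand were thus both higher in mural cells than in the other stroma in each library. The Notch3 call was lost without mutant 2 (0.78) and in the wildtype libraries alone (0.62).

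Dll1, Dll4 and Hes5 had 0 counts among the 1153259 UMIs of mural cells, which allows up to 2.60 CPM. Their stromal values reached 2.21, 0.75 and 2.51 CPM, so a difference was not detectable at this depth. Notch4 had 1 count. Of the pathway list 3 of 34 genes passed, all as higher, where 2.61% of all genes did. All were targets: Heyl at 148 ± 55.3 CPM in wildtype (3.62 ± 0.22, adjusted p = 3.71e-14), Nrarp (3.81 ± 0.48, adjusted p = 1.43e-06) and Hey2 (2.27 ± 0.43, adjusted p = 0.000913). Nrarp stood at 10.1, 16.2, 0 and 33.6 CPM in mural cells, so it was absent from the 10 cells of mutant 1 and highest in mutant 2. Of all genes past the threshold here 67.7% were higher in mural cells in DESeq2, against 47.0% in edgeR. At least 1 endothelial marker UMI was found in 38.7% of mural cells and at least 1 neural marker UMI in 46.4%, against 19.4% and 23.4% of stromal cells. The median depth was 4184, 5022, 8929 and 6546 UMIs in mural cells, above the 2312 to 2954 of stromal cells. The part of these in the differences was not tested.

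Within the nephron, Jag1, Dll1, Lfng, Hes5, Notch1 and Notch2 were higher at the early stage. Of the 7 genes tested, 6 were higher in early nephron cells than in the mean of progenitors, podocytes, proximal and distal cells, where 30.2% of 8717 genes passed, 17.8% as higher; Notch3, Notch4 and Dll4 were not tested. The sum of mutant 1 progenitors, of 3 cells, was left out of this fit. Jag1 stood at 230, 127, 112 and 184 CPM in early cells and at 9.21 and 10.4 CPM in wildtype progenitors, a log2 difference of 1.97 ± 0.14 over the other stages (adjusted p = 1.31e-14). Dll1 stood at 67.3, 74.4, 16.6 and 60.5 CPM against 3.68 and 3.86 CPM in wildtype progenitors (2.73 ± 0.21, adjusted p = 3.58e-19). Proximal tubule cells gave 77.9, 48.5, 51.4 and 39.4 CPM of Dll1, above the early cells in wildtype 1 and mutant 1 (29 and 3 counts), and 110, 59.8, 51.4 and 127 CPM of Jag1, below the early cells in each library. Both ligands were thus low in wildtype progenitors, and Dll1 overlapped between early and proximal cells.

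Lfng stood at 28.5, 92.3, 83.1 and 71.1 CPM in early cells (2.2 ± 0.20, adjusted p = 2.76e-15) and Hes5 at 6.84, 87.2, 24.9 and 19.1 CPM (2.92 ± 0.28, adjusted p = 3.58e-15). Proximal tubule cells gave 10.7 and 27.5 CPM of Hes5 and 10.7 and 107 CPM of Lfng in wildtype, so that Hes5 in wildtype 1 and Lfng in wildtype 2 were higher in proximal than in early cells. The Lfng window was shown for its matches and not for its level, so nothing is read from the motif here. The other genes higher at this stage, Jag1, Dll1, Notch1 and Notch2, had no match in theirs. Without wildtype 2, Hes5 fell under the low-count filter and was not tested, and without mutant 2 its difference was 3.91. Notch1 was higher by 1.24 ± 0.14 (adjusted p = 1.43e-11), at 112, 68.9, 24.9 and 93.8 CPM in early cells. Its early value in mutant 1 lay below the proximal (34.2 CPM) and distal (47.7 CPM) values of that library and above the podocyte value (15.6 CPM). Notch2 was higher by 0.40 ± 0.15 (adjusted p = 0.0307), a call lost without wildtype 1 (0.46), wildtype 2 (0.22) or mutant 2 (0.48) and in DESeq2 (0.39).

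Hes1 did not pass in this contrast. It stood at 151, 82.0, 295 and 254 CPM in early cells and at 175 and 102 CPM in wildtype progenitors, and its difference of -0.11 ± 0.10 over the other stages did not pass (adjusted p = 0.450). Distal cells gave 255, 128, 196 and 370 CPM. Of 24 pathway genes tested in this contrast 3 were higher and 2 lower, where 30.2% of all genes passed, 17.8% as higher. The higher ones were the targets Hey1 (1.45 ± 0.14), Nrarp (2.09 ± 0.23) and Heyl (1.41 ± 0.21), and the lower ones Aph1a, of the gamma-secretase complex (-0.58 ± 0.15), and Dtx3 (-0.48 ± 0.19).

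Early nephron cells were also divided, after the data had been seen, by whether the cell held a Jag1 UMI. The 470 cells with one held 3725487 UMIs and the 510 without held 2383611, and CPM corrects for this depth only on average. Dll1 was higher in the cells with Jag1 in 4 of 4 libraries, at 77.1, 103, 24.2 and 74.9 CPM against 39.5, 38.6, 8.56 and 35.4 CPM. Lfng was also higher in 4 of 4, at 32.4, 117, 96.8 and 83.3 CPM against 17.5, 61.6, 68.5 and 49.99 CPM. The values of mutant 1 rest on 21 and 28 cells.

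Notch1, Notch2, Hes5 and Nrarp were higher with Jag1 in 3 of 4 libraries each, while Hes1 was lower in 3 of 4 and Hey1 was higher in 2 and lower in 2. For Hes5 the values were 7.71, 114, 32.3 and 17.5 CPM with Jag1 and 4.38, 54.2, 17.1 and 21.9 CPM without. These are descriptions with no test.

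**Figure D3:**
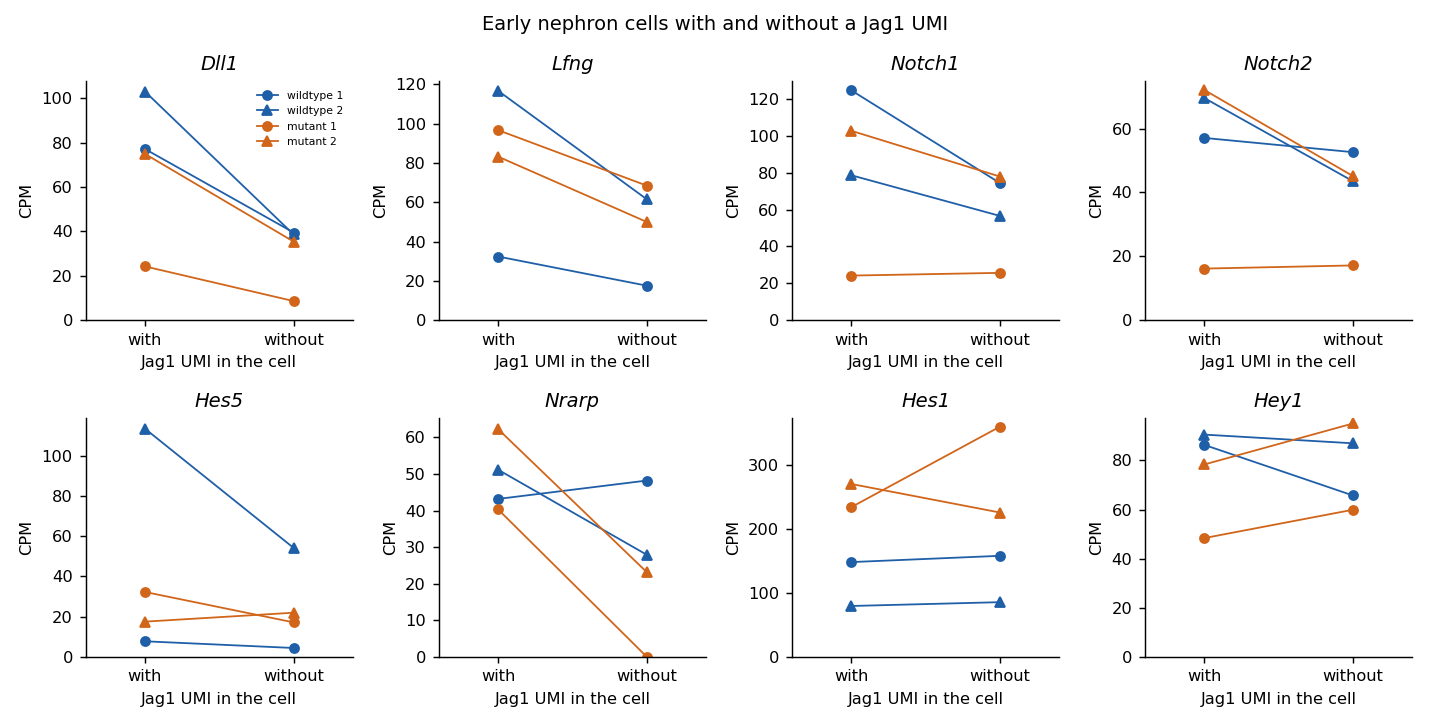
Levels in CPM (linear axis from 0) in early nephron cells with and without a Jag1 UMI, with 1 line per library (blue wildtype, orange mutant). All 4 lines of Dll1 and Lfng fall from left to right, from 103 to 38.6 CPM for Dll1 in wildtype 2, and those of Hes1 and Hey1 go in different directions.

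Endothelial cells with at least 2 UMIs of arterial markers (Gja4, Gja5, Sox17, Efnb2 and others) numbered 44, 90, 30 and 196. Notch4 stood at 66.0, 32.8, 87.2 and 58.6 CPM in them and at 41.9, 12.95, 0 and 30.2 CPM in the other endothelial cells. Notch1 stood at 178, 91.9, 101 and 166 CPM against 129, 56.7, 48.5 and 104 CPM, and Jag1 at 19.8, 39.4, 26.8 and 32.2 CPM against 8.98, 3.24, 0 and 12.1 CPM. These 3 genes, Lfng and Hes1 were higher with arterial markers in 4 of 4 libraries. So was the target Hey1, at 66.0 against 5.98 CPM over all libraries. Hes1 in wildtype 1 was nearly the same in both, at 207.9 against 206.5 CPM. The other endothelial cells of mutant 1 held only 61901 UMIs, so their 0 values of Notch4 and Jag1 do not settle a direction there. The median depth was 4146, 4078, 3410 and 5434 UMIs with arterial markers, against 3541, 2888, 1542 and 3503 in the other endothelial cells. The part of depth in these values was not tested.

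Dll4 was split between libraries. It gave 33.0, 63.5, 53.6 and 67.4 CPM with arterial markers and 44.9, 11.3, 80.8 and 15.7 CPM without. It was higher with arterial markers in wildtype 2 and mutant 2 and lower in wildtype 1 and mutant 1, and its counts outside the arterial cells were 15, 7, 5 and 13. These values have no test. The other endothelial cells of mutant 1 were only 20.

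Stromal cells were divided, after the data had been seen, by which marker group led: cortical (Foxd1, Ntn1, Crabp1), medullary (Penk, Alx1) or matrix (Dcn, Lum, Postn). The groups held 685, 319 and 1700 cells, and the libraries contributed unequally (1084 of the matrix cells came from mutant 2 and 191 of the medullary cells from wildtype 2), so values are given within libraries. Notch2 stood at 67.3, 45.8, 24.4 and 72.8 CPM in matrix cells and at 30.0, 31.5, 19.1 and 54.3 CPM in cortical cells, higher in matrix cells in 4 of 4 libraries. Hes1 stood at 107, 50.4, 134 and 189 CPM in cortical cells and at 87.5, 54.1, 130 and 151 CPM in matrix cells, higher in cortical cells in 3 of 4. In both wildtype libraries its medullary value, 35.5 and 24.7 CPM, was the lowest of the 3. Notch3 in wildtype gave 20.6 and 29.7 CPM in cortical, 35.5 and 26.4 in medullary and 26.9 and 16.6 in matrix cells, with no group highest in both libraries. These values have no test. Only 3 medullary cells came from mutant 1.

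The genotypes were then compared within gates, and edgeR called 0 of the 10 genes. This held in all cells (10 genes tested, 1.32% of 15777 genes passed), in nephron cells (9 tested, 0.619% of 13088) and in nephron cells without progenitors (9 tested, 0.00786% of 12725). It also held in endothelium (7 tested, 0.171% of 8204) and stroma (6 tested, 0.454% of 11450), with 0 of the 10 genes called by DESeq2 in each of the 5. At an unadjusted p below 0.05 stood Dll4 in all cells and Hes1 in nephron cells, nephron cells without progenitors and stroma, and 0 genes in endothelium. In these 5 comparisons 9.50%, 8.50%, 5.18%, 4.89% and 6.83% of all genes had such a p. Of the genes past the threshold in stroma 75.5% were higher in mutants in DESeq2, against 59.6% in edgeR, and in nephron cells without progenitors 83.3% of 12 genes, against 0% of 1. With 2 libraries a side, an exact permutation test of a single value cannot go below p = 0.333.

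Not tested for low counts were Dll4 in both nephron fits, Notch2, Notch3 and Hes5 in endothelium, and Notch4, Dll1, Dll4 and Hes5 in stroma. The smaller gates gave 0 of 8 genes in early nephron cells (0% of 9997 genes passed), 0 of 5 in distal cells (0.0125% of 8003) and 0 of 8 in cells of mixed stage (0% of 9190). Only Hes1 had an unadjusted p below 0.05 in them, in early and mixed-stage cells, where 3.51% and 3.87% of all genes did (3.95% in distal cells). DESeq2 was not run there.

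The receptors and ligands in their main gates were not shown to differ between genotypes beyond the spread of the libraries. In endothelium, Dll4 differed by 0.51 ± 0.47 (log2 mutant over wildtype, SE), Notch4 by 0.53 ± 0.49, Notch1 by 0.09 ± 0.39 and Jag1 by 0.40 ± 0.54, each with an adjusted p of 0.998. In early nephron cells Jag1 differed by -0.28 ± 0.36, Dll1 by -0.74 ± 0.43 and Notch2 by -0.39 ± 0.44. In stroma Notch3 differed by -0.04 ± 0.37 and Notch2 by 0.16 ± 0.39. None of these differences reached 2 times its standard error.

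In the sum over all cells Dll4 stood at 3.31, 2.07, 5.93 and 6.64 CPM, a difference of 1.13 ± 0.48 (adjusted p = 0.377). Both mutant values lay above both wildtype values. Endothelial cells made up 6.86%, 5.03%, 6.17% and 9.29% of the kept cells. In such sums more cells of a type and more of the RNA per cell cannot be told apart. Within the endothelial gate Dll4 stood at 39.2, 33.5, 61.6 and 47.9 CPM, and its difference of 0.51 ± 0.47 did not pass.

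Hes1 had the smallest p of the 10 genes in stroma and in each of the nephron fits. In stroma it stood at 88.7, 53.6, 137 and 167 CPM, in nephron cells without progenitors at 163, 92.7, 263 and 300 CPM, and in early nephron cells at 151, 82.0, 295 and 254 CPM. In all 3 both mutant values lay above both wildtype values. These came to log2 differences of 1.11 ± 0.33, 1.10 ± 0.34 and 1.22 ± 0.37, with adjusted p of 0.189, 0.540 and 0.541 in edgeR, none past the threshold. Leaving out a library moved the stromal value between 0.83, without wildtype 2, and 1.42, without wildtype 1.

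In endothelium Hes1 gave 207, 65.1, 128 and 175 CPM, with the genotypes overlapping, and a difference of 0.21 ± 0.42 (adjusted p = 0.998). Tested directly as an interaction with library as a block, the genotype difference was smaller in endothelium than in stroma by a log2 difference of -0.80 ± 0.22 (adjusted p = 0.0296), the only 1 of 9 genes tested, where 1.18% of 11148 genes passed, 0.475% in this direction. The call was lost without wildtype 1 (-0.26), without mutant 2 (-0.98) and without the low-count filter (-0.79), and the adjusted p ranged from 0.0118 to 1 over the alternatives. Between nephron and stroma 0 of 9 genes passed that test, where 1.92% of 13093 genes did, and Hes1 differed by -0.01 ± 0.14. Notch2 alone of the 9 genes had an unadjusted p below 0.05 there, at -0.58 ± 0.22 (adjusted p = 0.271 in edgeR), where 9.46% of all genes did.

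Other quantities moved between the same libraries. The nuclear transcript Malat1 stood at 2836, 2064, 4925 and 7087 CPM in stroma, higher in both mutant libraries, as was the share of barcodes above the mitochondrial limit. The summed immediate early genes stood at 708, 231, 189 and 327 CPM in stroma, highest in wildtype 1, where Hes1 was also the higher of the wildtype values. The summed stromal markers were 8144, 4714, 13190 and 13480 CPM. Their part in the Hes1 values was not tested.

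**Figure D4:**
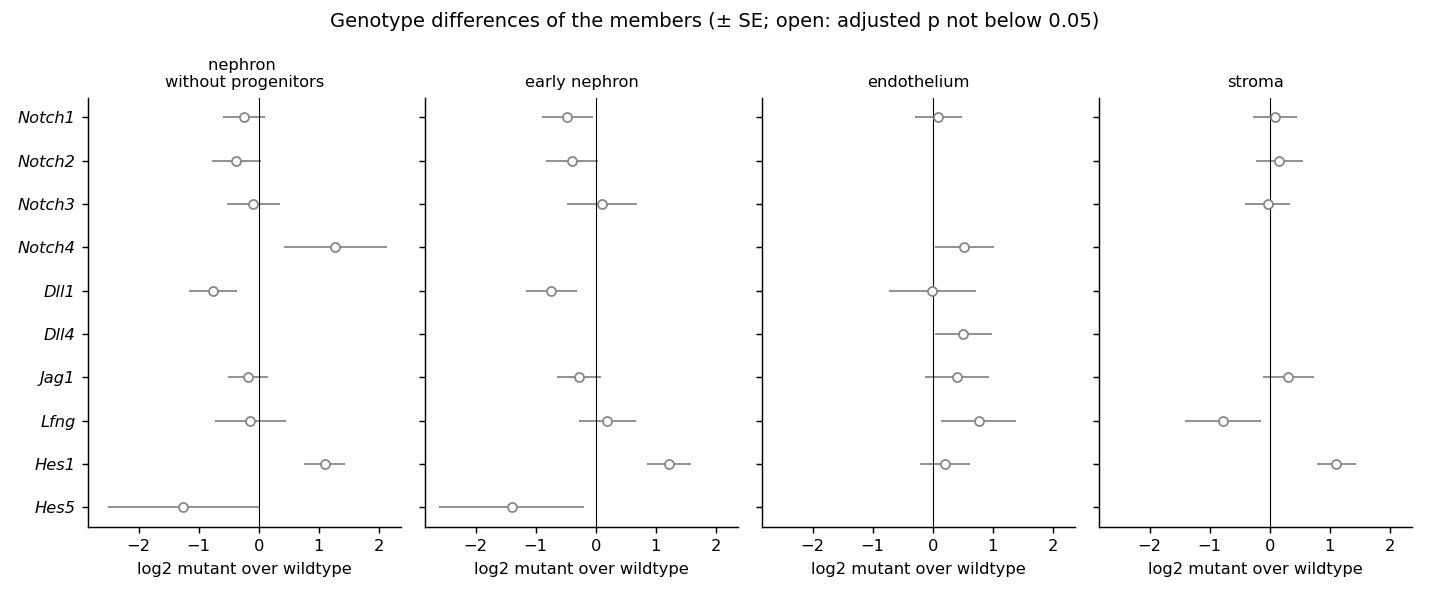
Log2 fold changes of mutant over wildtype (points) with standard errors (bars) for the genes tested in 4 gates; all points are open because none passed an adjusted p of 0.05. Hes1 lies at 1.10, 1.22, 0.21 and 1.11 from left to right.

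Hes5 and Lfng differed widely between the wildtype libraries. In nephron cells without progenitors Hes5 gave 5.27, 55.1, 12.96 and 15.1 CPM, and Lfng 16.2, 64.3, 38.9 and 41.2 CPM. Both mutant values of each gene lay between the wildtype values, and the genotype differences were -1.26 ± 1.26 and -0.14 ± 0.59. Over all cells the log2 ratio of wildtype 2 to wildtype 1 was 3.21 for Hes5, with 13 of 6990 genes (0.186%) at or above it, and 1.94 for Lfng, with 51 genes (0.730%) at or above it.

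The ratio moved with base composition across 6662 genes (Pearson r = 0.235, genes of the same pair of libraries), from a median of -0.28 in the 10% of genes with the lowest GC content to 0.19 in the 10% with the highest. The transcripts of Hes5 and Lfng have 62.1% and 58.8% GC, and Notch4, at 61.2%, had a ratio of -0.62. The part of base composition in these ratios was not tested. Hes1 went the other way, with a ratio of -0.87 and 92.1% of genes at or above it.

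Calls for these genes depended on 1 library. Without wildtype 1, Hes5 was lower in mutants by -2.16 over all cells (adjusted p = 0.000393) and by -2.10 in nephron cells without progenitors (adjusted p = 0.00169). Without wildtype 2, Lfng was higher in mutant nephron cells by 1.90 (adjusted p = 0.0297). In the nephron gate as a whole progenitors were 339, 788, 3 and 29 of the cells, and the summed progenitor markers stood at 915, 867, 143 and 167 CPM, so its genotype differences compare different mixtures of stages.

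**Figure D5:**
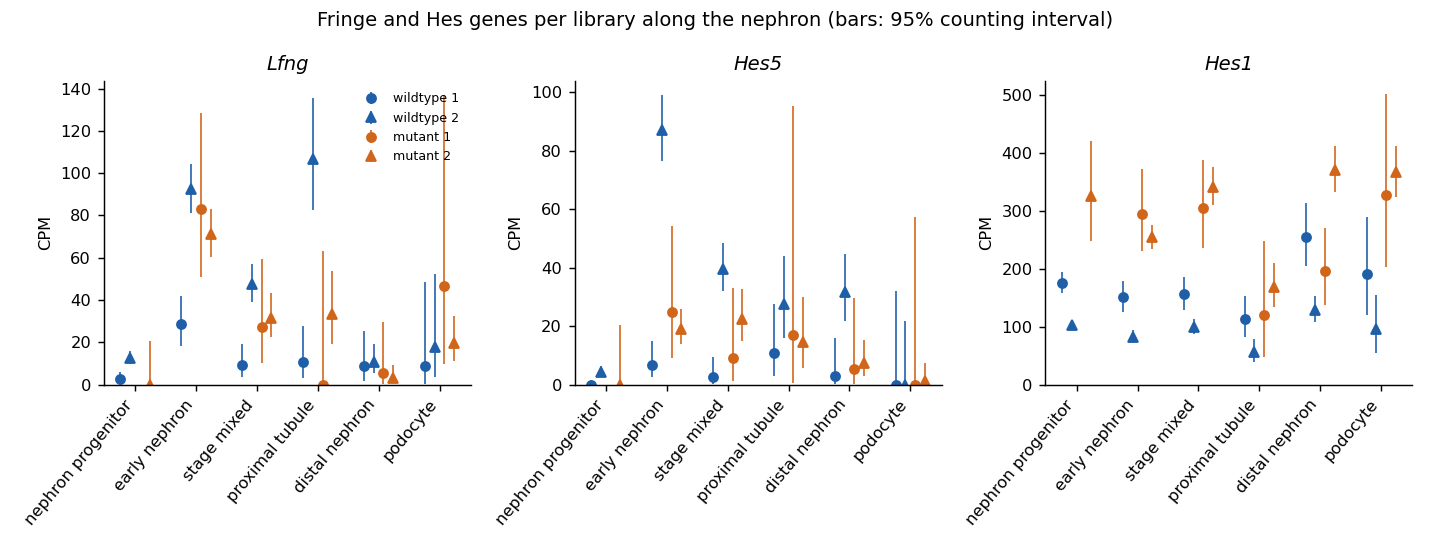
Levels in CPM (linear axis) of Lfng, Hes5 and Hes1 per library over 6 nephron gates with at least 10 cells, with exact 95% intervals for counting error only. For Hes5 and Lfng in early nephron cells wildtype 1 is lowest and wildtype 2 highest (6.84 and 87.2, 28.5 and 92.3 CPM), whereas both mutant values of Hes1 there lie above both wildtype values.

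Of the 45 pathway genes 42 were tested over all cells, 1 passed as higher and 0 as lower, where 1.32% of all genes passed. Their median log2 fold change was 0.23 against 0.01 for all genes. The gene was Dlk1, at 93.0 ± 22.5 CPM in wildtype and 365 ± 81.7 in mutant (SD, n = 2; 1.86 ± 0.34 SE, adjusted p = 0.00178). In stroma, where its level was highest, it stood at 411 ± 99.8 and 785 ± 199 CPM and did not pass (0.93 ± 0.38, adjusted p = 0.552). Stromal cells were 27.2%, 21.9%, 49.9% and 47.2% of the kept cells.

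In the other gates 0 of the list's genes passed, where 0% to 0.619% of all genes did. The 2 with the smallest p in stroma were Rbpj, the DNA-binding partner of cleaved Notch (0.82 ± 0.34, adjusted p = 0.552 in edgeR), and Dlk1. In endothelium they were Nrarp, at 18.6 ± 2.58 and 39.9 ± 2.87 CPM (1.10 ± 0.50, adjusted p = 0.933 in edgeR), and Psenen, of the gamma-secretase complex (-0.71 ± 0.39). In nephron cells they were Dlk1 (0.91 ± 0.45) and Ncstn, also of gamma-secretase (0.79 ± 0.40), and in early nephron cells the ubiquitin ligase gene Itch (1.19 ± 0.50) and the radical fringe gene Rfng (1.17 ± 0.59). In nephron cells without progenitors they were Dlk1 (0.91 ± 0.46) and Dtx4, of the Deltex family (1.5 ± 0.81). In the interactions they were Rbpj (-0.59 ± 0.23) and the ligand ubiquitin ligase gene Mib2 (0.74 ± 0.40) for nephron against stroma, and Aph1a (-0.67 ± 0.32) and Adam10 (-0.42 ± 0.20) for endothelium against stroma, with 0 passing.

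Genes with the most similar pattern were ranked by the Pearson correlation of log2(CPM + 10) over 10 gates, on the mean of the wildtype libraries and among 9934 genes. With 10 points from 2 libraries these are descriptions, and a gene high in 1 gate alone gives a value near 1. For Dll4 the nearest were Sox7, Gimap3 and Sox18 (r = 0.9997, 0.999 and 0.999) and for Notch4 Sox18, Unc45b and Mmrn2 (0.984, 0.983 and 0.982). The gene nearest to Dll1 was Lfng (0.968), followed by Hes5 (0.868) and Helz (0.865). Lfng had Dll1, Helz and Slc37a4 as its nearest (0.968, 0.849 and 0.821), and Hes5 had Iars2, Car4 and Dll1 as its nearest (0.901, 0.872 and 0.868). Jag1 had Nrarp first (0.903) and Notch3 had Cand2 (0.960).

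The genes nearest to Notch1 were Crim1 (0.902), 0610009E02Rik (0.811) and Cav1 (0.798). The second is a transcript that overlaps Notch1 by 1488 bases on the opposite strand, and since the handling of strand is not given in the sources used here, their counts cannot be told apart there. Transcripts on the opposite strand with counts in the tables also overlap Dll4, Hes5, Dll1 and Notch3, with 110, 9, 42 and 17 counts over all kept cells. Notch2 had Prr3 (0.879) and Hes1 had Rbx1 (0.956) as the nearest gene.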

How the data were processed

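Drop-seq libraries of E14.5 kidney (2 wildtype, 2 mutant) were analysed. The authors deposited raw counts per gene and cell barcode, whole numbers with no normalization found; per the submitters' processing notes Bowtie2 2.2.7 and build mm10 were used. Annotation, strand and collapsing of molecular identifiers are not given in the sources used here, and intervals cover counting error only.

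Cells had at least 500 genes and at most 10% mitochondrial counts, and the 5% with the highest Scrublet score per library were left out (scores used as ranks). Marker UMIs were capped at 3 per gene; a lineage needed 3 UMIs, 2 markers and 2 times the next lineage, and a nephron stage 2 UMIs and 1.5 times the next. Counts were summed per library and gate and compared by the quasi-likelihood test of edgeR 4.0.16 (R 4.3.3), with TMM scaling, the filterByExpr filter and robust fitting. Fits covered all genes, and an adjusted p (Benjamini-Hochberg) below 0.05 was a call. Genotype tests needed 25 cells per library, and contrasts between gates, with library as a block, 10. DESeq2 1.42.0, no low-count filter, a replicate block, each library left out, other cell filters and other gates were alternatives. CPM divides by the UMIs of the gated cells, without TMM. Depth was 3036779 to 22679074 UMIs in kept cells. The edgeR genotype fits were tested on simulated counts with a fixed spread, in which 200 genes were changed by 2 on the log2 scale. In all cells 60% of these were called, in nephron cells without progenitors 52.5%, in endothelium 59% and in stroma 51.5%. A genotype difference of that size can thus be missed. Python 3.11.15, scanpy 1.11.5, scipy 1.17.1 and pandas 2.3.3 were used. Positions are from GENCODE vM21 and promoters from RefSeq.

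The 10 genes, the gene and marker lists and the tests were chosen with earlier results of these data known. The text names all 10 genes, up to 6 pathway genes past the threshold with the smallest p (or the 2 with the smallest p), up to 3 of the most similar genes, and of the promoters with the motif those of Hes5 and Lfng.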

Additional observations from a re-analysis of the deposited data

Results flagged for a closer look

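With all libraries, the genotype difference of Hes1 was smaller in endothelium than in stroma: the interaction was -0.80 on the log2 scale (SE 0.22, adjusted p = 0.0296 in edgeR). It was flagged because a direct test of the difference between the gates passed the threshold. That call was lost without wildtype 1, without mutant 2 and without the low-count filter. The genotype difference itself passed in neither gate (adjusted p = 0.998 in endothelium and 0.189 in stroma, edgeR). Hes1 was higher in both mutant libraries (137 and 167 CPM) than in both wildtype libraries (88.7 and 53.6 CPM) in stroma, while in endothelium wildtype 1 held the highest value. Over the alternatives the adjusted p ranged from 0.0118 to 1, and the value from -1.23 without wildtype 2 to -0.26 without wildtype 1.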

How the results depend on the processing

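For the genotype comparisons 501 of 504 values of single genes under the alternatives stayed on their side of the threshold, and 56 of them changed sign, none of these past the threshold in either fit. For the contrasts between gates 401 of 418 stayed, 12 lost and 5 gained the call, and 13 changed sign, none of them past the threshold. For the interactions 120 of 123 stayed and 3 lost the call, and 19 changed sign, none of them past the threshold. Without a library, 0 to 1 of the genes passed between genotypes in all cells, in nephron cells and in nephron cells without progenitors, against 0 with all libraries. The interaction of endothelium and stroma gave 0 to 1 without a library and 0 with no low-count filter, against 1. In shares of wildtype cells with a UMI, thinning to 2000 instead of 1000 UMIs gave 7.56% for Dll4 in endothelium and 0.141% in stroma, 9.75% for Jag1 in nephron cells and 2.66% in stroma, and 4.68% for Notch3 in stroma, against 4.27%, 0%, 4.64%, 1.57% and 2.29%.

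Counts over all genes moved more. In nephron cells 81 genes passed, and 149 without the low-count filter, 139 with the looser gate and 202 to 225 without a library. Without progenitors 1 passed, and 12 in DESeq2, 35 without the filter, 8 and 2 with the looser and stricter gate and 56 to 101 without a library. In endothelium 14 passed, and 7 in DESeq2, 22 without the filter, 7 with at least 1000 genes per cell, 8 with the stricter gate and 22 to 36 without a library. In stroma 52 passed, and 138 without the filter and 111 to 177 without a library; in all cells 208, and up to 379 without mutant 2. Mural over stroma gave 622, 305 in wildtype alone and 180 without mutant 2, and early nephron 2633, 1404 without wildtype 2 and 1736 without mutant 2. The interactions gave 252 and 131, and down to 124 and 40 without a library.

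The replicate numbers are shared in name only. With the replicate block 0 of the 10 genes passed in each genotype comparison, and over all genes 169 in all cells, 0 in nephron cells, 0 without progenitors, 17 in endothelium and 119 in stroma. Same-numbered libraries deviated with a correlation of -0.09 (stroma) to 0.08 (all cells). The crossed block, added after seeing the data, gave 37, 11, 9 and 4 genes in nephron cells, nephron cells without progenitors, endothelium and stroma, and 0 of the 10.

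Mutant 1 gives the least depth: 49 early nephron, 50 endothelial and 10 mural cells. Leaving out a library leaves 1 of its genotype, whose spread is then taken from the other genotype.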
